A study of Mus musculus with 2 samples.

Results

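The genes described here encode the PI3K, AKT, mTOR and AMPK signalling network: 33 genes chosen by name, of which 27 had at least 1 probe set annotated to that gene alone, out of 12393 genes named on the arrays. Each gene is represented by its probe set with the highest mean log2 signal, out of 52 probe sets for the 27 genes. The populations compared were eosinophils (SiglecF+ and CD11b+, with intermediate CD11c and no MHC class II) and dendritic cells (positive for CD11c and MHC class II), both sorted without stimulation from the small intestinal lamina propria of C57BL/6 mice aged 8 weeks. Each population was measured on 1 array. No genetic alteration or treatment is given for either population, and neither is the number of animals sorted.

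Class I PI3K phosphorylates a membrane lipid downstream of cytokine, growth factor, antigen and chemoattractant receptors. The lipid product recruits PDK1 and AKT, and AKT in turn inhibits the TSC complex, GSK3 and the FOXO transcription factors, so that mTORC1 is active and FOXO proteins are kept out of the nucleus. AMPK, switched on by LKB1 when cellular energy is low, acts in the opposite sense on mTORC1. In eosinophils this network carries survival signals of interleukin-5 family cytokines, and in dendritic cells it carries signals of Flt3 ligand and of microbial sensors.

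Foxo3 and Txnip were the only members at least 4-fold apart, both brighter on the eosinophil array, and no member was 4-fold lower there. Before the log2 difference was taken, any signal below 134.7 units, the pooled median over the arrays, was raised to that floor, and a fold that used the floor on 1 side is written "at least". Across all 12393 genes, 3.45% were at least 4-fold higher in eosinophils and 3.45% at least 4-fold lower. At 2-fold, 8 of the 27 members were higher in eosinophils (Foxo3, Txnip, Pik3cd, Sesn1, Pdpk1, Tsc1, Pik3ca and Prkab1), against 12.3% of all genes. Another 4 were at least 2-fold lower (Foxo1, Gsk3b, Sgk1 and Stk11), against 10.01% of all genes. A gene under the floor on both arrays cannot reach either mark. Above the floor on at least 1 array were 24 of the 27 members, but 7994 of the 12393 genes. The counts and shares are therefore not matched for expression. The median log2 difference over the 27 members was 0.00, as it was over all genes, with those under the floor on both arrays kept at 0. Over the genes above the floor on at least 1 array it was 0.24 for 24 members and 0.16 for all genes. Of the members, 22 lay above the floor on both arrays, 1 on the eosinophil array only, 1 on the dendritic cell array only and 3 on neither. Because each population had a single array, no replicate error and no test exist, and each value describes these arrays. In sorted bulk samples, fewer cells expressing a gene and less RNA per cell cannot be told apart.

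The split in direction depended on the common scale of the deposited signals. The hybridisation spike controls had a median excess of 2.06-fold in eosinophils over 18 probe sets, and centring on them lowered the log2 difference of each member that stayed above the floor on both arrays by 1.04, and of members at the floor by less or not at all. On that scale Foxo3 alone was at least 4-fold higher in eosinophils, against 1.30% of all genes, and Foxo1, Gsk3b, Sgk1 and Stk11 were at least 4-fold lower, against 9.30% of all genes. At 2-fold the spike scale gave 2 members higher (3.95% of all genes) and 11 lower (24.2% of all genes). Akt1, Gsk3a, Sgk3 and Prkag1 were higher in eosinophils on the deposited scale but lower on the spike scale (log2 differences of -0.33, -0.88, -0.05 and -0.72). Differences below are on the deposited scale.

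The arrays followed their labels. Siglecf gave 6977 units in eosinophils, against 112.3 units (under the floor) in dendritic cells, and H2-Aa gave 155.4 units in eosinophils against 34014 units in dendritic cells. Of 7 eosinophil markers 6 were above the floor in eosinophils, the exception being Prg2, and 1, Adgre1 (326.9 units), was above it in dendritic cells. All 10 measured dendritic cell markers were above the floor in dendritic cells, and 5 of them were also above it in eosinophils. These were Cd74 (605.8 units in eosinophils), Batf3 (417.4 units), Zbtb46 (400.0 units), H2-Eb1 (246.8 units) and H2-Aa. Zbtb46 was only 1.48-fold lower in eosinophils. Of the markers of B and plasma cells (3) and of red cells (2), none was above the floor on either array. In the stroma and endothelium list, 4 of 6 were above the floor in eosinophils and 1 of 6 in dendritic cells, with summed signals of 1976 units in eosinophils against 543.5 units in dendritic cells. Pdgfra (789.1 units in eosinophils against 54.8 units in dendritic cells) and Pecam1 (646.7 units in eosinophils against 55.8 units in dendritic cells) were the furthest apart. The T cell list summed to 531.2 units in eosinophils against 4490 units in dendritic cells. Most of the dendritic cell sum was Cd8a (140.9 units in eosinophils against 3732 units in dendritic cells), which some dendritic cells also express. Cd3e was above the floor on both arrays too, with 335.6 units in eosinophils against 557.0 units in dendritic cells. Cd3d, Cd3g and Cd4 were under the floor on both arrays. The macrophage and monocyte list summed to 1453 units in eosinophils against 1892 units in dendritic cells, with 2 of 7 genes above the floor in eosinophils and 3 of 7 in dendritic cells. The neutrophil list summed to 542.3 units in eosinophils (2 of 5 genes above the floor) against 323.7 units in dendritic cells (1 of 5). The mast cell list summed to 387.7 units in eosinophils (0 of 6) against 668.3 units in dendritic cells (1 of 6), and the epithelium list to 806.1 units in eosinophils (1 of 7) against 853.4 units in dendritic cells (2 of 7). The part of other cells in the results below was not tested. The ratio of 3′ to 5′ control signal was 6.38 in eosinophils and 9.0 in dendritic cells for Actb, and 9.81 in eosinophils and 6.58 in dendritic cells for Gapdh. Signal was thus much stronger at the 3′ end on both arrays, and the array with the higher ratio differed between the controls. The part of this bias in the differences between probe sets of a gene was not tested.

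**Figure D1:**
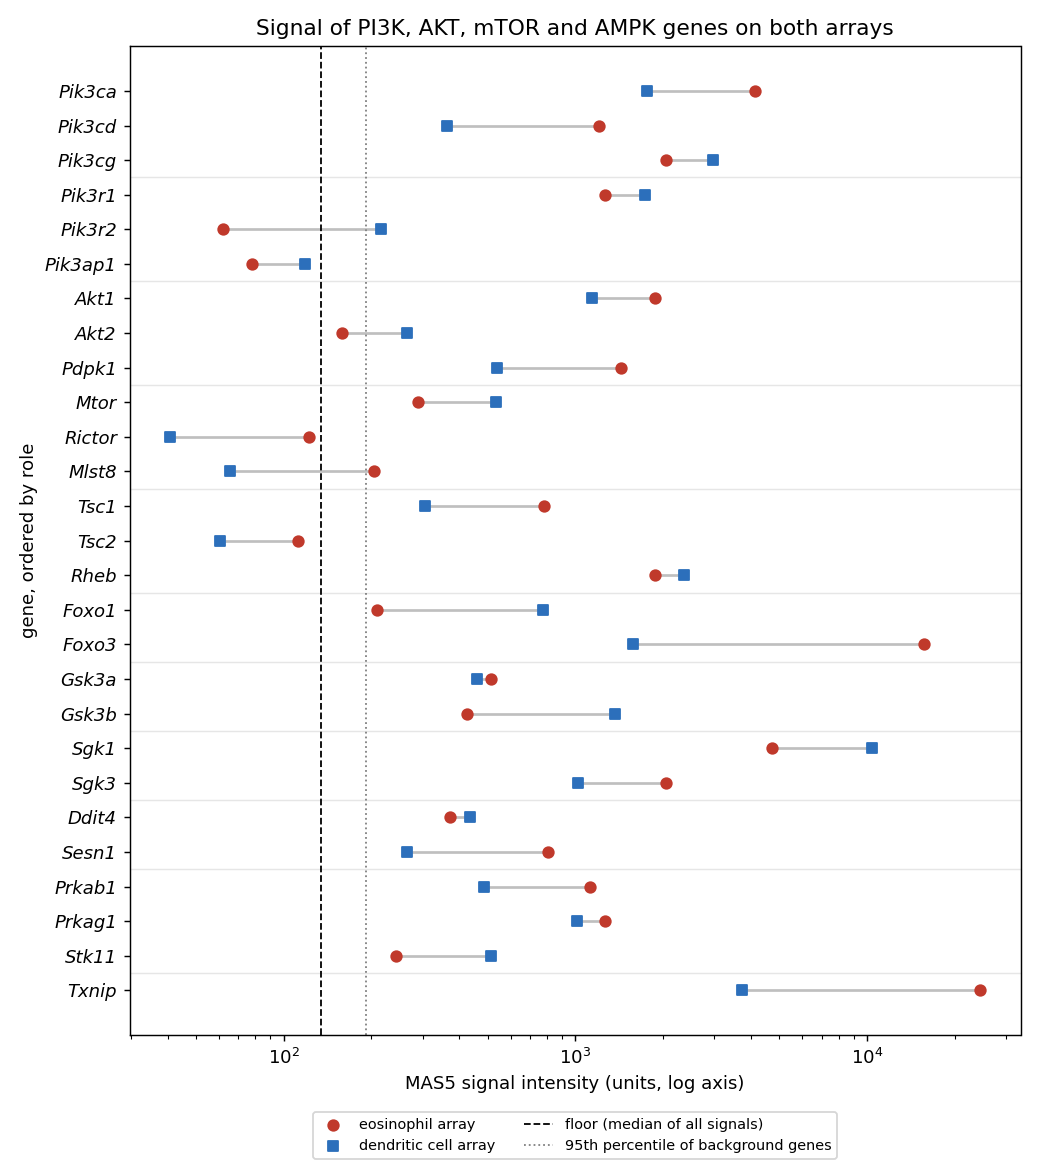
MAS5 signal intensity (log axis, units) of the 27 measured genes, ordered by role, with circles for the eosinophil array and squares for the dendritic cell array. The dashed line is the floor of 134.7 units and the dotted line is the 95th percentile of background genes, 191.9 units. The widest gap is that of Foxo3, with 15663 units in eosinophils against 1573 units in dendritic cells, and Pik3ap1, Rictor and Tsc2 lie left of the floor on both arrays.

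Among the class I PI3K catalytic subunits, the alpha and delta genes were brighter in eosinophils and the gamma gene was close between the populations. Pik3cd encodes p110delta, the leukocyte-enriched subunit that acts downstream of receptor tyrosine kinases and cytokine receptors. It gave 1210 units in eosinophils against 362.3 units in dendritic cells, 3.34-fold, and its other probe sets lay under the floor on both arrays. Pik3ca, the broadly expressed p110alpha, gave 4140 units in eosinophils against 1757 units in dendritic cells, 2.36-fold. Its second probe set gave 836.5 units in eosinophils against 88.1 units in dendritic cells, at least 6.21-fold, in the same direction. Pik3cg, the p110gamma subunit driven by G protein-coupled receptors, gave 2045 units in eosinophils against 2972 units in dendritic cells, a log2 difference of -0.54. Its second probe set was level, with 1248 units in eosinophils against 1183 units in dendritic cells. Pik3cb was not analysed here.

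Of the regulatory subunits, Pik3r1 was less than 2-fold apart and Pik3r2 had only a lower bound. Pik3r1, which encodes p85alpha and stabilises and restrains the catalytic subunits, gave 1269 units in eosinophils against 1728 units in dendritic cells, a log2 difference of -0.45. Its second probe set lay the same way (808.5 units in eosinophils against 1305 units in dendritic cells, -0.69). Pik3r2, the p85beta subunit, gave 62.0 units, under the floor, in eosinophils and 215.7 units in dendritic cells, at least 1.60-fold lower in eosinophils. Without the floor, or with the floor at the 25th percentile of signals, Pik3r2 was among the members at least 2-fold lower (a log2 difference of -1.80 in both settings). Of all genes, 22.7% were at least 2-fold lower in eosinophils without the floor, and 17.1% with the floor at the 25th percentile. Pik3ap1, the adaptor BCAP that links B cell and Toll-like receptors to PI3K, lay under the floor on both arrays (77.7 units in eosinophils against 118.1 units in dendritic cells). Pik3r5, which encodes the p101 partner of p110gamma, was not analysed here. Pik3ca and Pik3cd, whose proteins bind p85, were thus brighter in eosinophils, while Pik3r1 was slightly dimmer there.

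Pdpk1 was brighter in eosinophils, and the AKT genes were under 2-fold apart. Pdpk1 encodes PDK1, the kinase that phosphorylates the activation loop of AKT, SGK and S6 kinases. It gave 1432 units in eosinophils against 538.5 units in dendritic cells, 2.66-fold, and a second probe set gave 1007 units in eosinophils against 235.8 units in dendritic cells, 4.27-fold. Akt1 gave 1873 units in eosinophils against 1142 units in dendritic cells, 1.64-fold. Akt2, the isoform best known for insulin responses, was near the floor, with 158.9 units in eosinophils against 264.8 units in dendritic cells, a log2 difference of -0.74. The eosinophil signal of Akt2 lay between the floor and 191.9 units, the 95th percentile of background genes, and so may be background. Akt1 and Akt2 lay in opposite directions on the deposited scale, each by less than 2-fold.

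Of the mTOR complex genes, Mtor was less than 2-fold apart by its brightest probe set, and Mlst8 and Rictor were limited by the floor. Mtor, the catalytic kinase of mTORC1 and mTORC2, gave 288.2 units in eosinophils against 536.6 units in dendritic cells, a log2 difference of -0.90. Its second probe set was much further apart, with 53.0 units, under the floor, in eosinophils and 1016 units in dendritic cells, at least 7.54-fold lower in eosinophils. Both probe sets lay the same way, but the choice between them decided whether Mtor counted as 4-fold lower. Mlst8, a subunit of both complexes, gave 203.7 units in eosinophils, against 65.4 units in dendritic cells, under the floor, and so at least 1.51-fold. Rictor, the defining subunit of mTORC2, lay under the floor on both arrays, at 121.7 units in eosinophils against 40.8 units in dendritic cells. Without the floor Mlst8 and Rictor were both at least 2-fold higher in eosinophils, with log2 differences of 1.64 and 1.58. In that setting 30.7% of all genes were at least 2-fold higher in eosinophils. Those log2 differences rest on signals under the floor, for Rictor on both arrays and for Mlst8 in dendritic cells. Rptor, Rps6kb1 and Rps6ka1 were not analysed here, so no S6 kinase of the set was measured.

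Upstream of mTORC1, Tsc1 was brighter in eosinophils and Rheb was close between the populations. Tsc1 encodes hamartin, the scaffold of the complex that switches Rheb off. It gave 778.2 units in eosinophils against 305.9 units in dendritic cells, 2.54-fold. A second probe set was near the floor, with 152.6 units in eosinophils against 62.0 units in dendritic cells, at least 1.13-fold. Tsc2, the GTPase-activating partner, lay under the floor on both arrays (111.6 units in eosinophils against 60.4 units in dendritic cells). Rheb, the small GTPase that activates mTORC1, gave 1878 units in eosinophils against 2365 units in dendritic cells, a log2 difference of -0.33.

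The FOXO genes were in opposite directions. Foxo3, a transcription factor of stress resistance and quiescence that AKT inactivates, gave 15663 units in eosinophils against 1573 units in dendritic cells, 9.96-fold. A second probe set gave 11689 units in eosinophils against 1900 units in dendritic cells, 6.15-fold, and the third was under the floor on both arrays. Foxo1, its paralogue with known roles in lymphocyte homing and metabolism, gave 209.2 units in eosinophils against 773.5 units in dendritic cells, 3.70-fold lower in eosinophils. The next probe sets of Foxo1 gave 103.4 and 103.2 units, under the floor, in eosinophils, against 339.0 and 299.1 units in dendritic cells, at least 2.52-fold and at least 2.22-fold lower. The fourth lay under the floor on both arrays. All 3 measured probe sets of Foxo1 and both of Foxo3 thus kept the direction of their gene.

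Txnip had the second largest difference. It encodes thioredoxin-interacting protein, an arrestin-fold protein that limits glucose uptake, is marked for degradation by AMPK and is a textbook target of FOXO and of the glucose-sensing factors MondoA and ChREBP. It gave 24418 units in eosinophils against 3733 units in dendritic cells, 6.54-fold. A second probe set was closer between the arrays, with 730.6 units in eosinophils against 312.0 units in dendritic cells, 2.34-fold. Both probe sets were brighter in eosinophils.

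The sequences before the start sites of Foxo3 and Txnip, the genes furthest apart, and of Foxo1, the FOXO gene with the opposite direction, are shown because FOXO proteins bind promoters of this network and Txnip is one of their known targets. Each is the 250 bases before the start in RefSeq, build GRCm38.p6, read 5′ to 3′ on the strand of the gene, with motif matches in capitals. Foxo3 lies on the minus strand (chr10:42276696-42276945), and Txnip (chr3:96557707-96557956) and Foxo1 (chr3:52268087-52268336) on the plus strand.
Foxo3: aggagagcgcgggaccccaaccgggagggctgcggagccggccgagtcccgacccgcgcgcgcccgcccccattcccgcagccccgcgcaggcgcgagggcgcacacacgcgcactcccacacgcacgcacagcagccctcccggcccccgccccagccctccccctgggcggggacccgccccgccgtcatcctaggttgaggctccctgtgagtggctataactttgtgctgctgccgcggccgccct
Txnip: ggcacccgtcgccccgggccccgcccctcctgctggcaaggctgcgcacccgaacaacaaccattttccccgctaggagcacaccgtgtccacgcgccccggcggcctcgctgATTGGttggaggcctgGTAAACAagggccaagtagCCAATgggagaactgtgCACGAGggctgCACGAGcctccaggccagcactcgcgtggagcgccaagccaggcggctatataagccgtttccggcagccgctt
Foxo1: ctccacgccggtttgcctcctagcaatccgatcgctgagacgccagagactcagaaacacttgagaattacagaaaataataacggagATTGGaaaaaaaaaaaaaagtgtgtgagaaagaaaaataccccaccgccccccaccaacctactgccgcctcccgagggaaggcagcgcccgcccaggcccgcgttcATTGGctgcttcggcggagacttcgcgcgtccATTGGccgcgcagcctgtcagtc

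Of the 27 genes, 26 had such a window, 41 windows in all because some genes have several starts. The motifs searched, on both strands, were the FOXO element GTAAACA, the insulin response element core CAAAACA, the E-box CACGTG, the half-site CACGAG of carbohydrate response elements and the CCAAT box (ATTGG on the other strand). The Txnip window held GTAAACA 121 bases before the start, CACGAG 85 and 74 bases before it, and CCAAT boxes 137 and 102 bases before it, with no overlap between matches. GTAAACA was in 3 of the 41 windows (Akt1, Pik3cg and Txnip) and in 3.17% of all 32851 windows. CACGAG was in 3 windows (Pik3ap1, Pik3r2 and Txnip) and in 5.37% of all windows, and CACGTG was in 3 (Pik3ap1, Rheb and Sgk1) and in 6.02% of all. CAAAACA was in none of the 41 and in 5.56% of all, and CCAAT was in 16 of the 41 and in 33.8% of all. The Foxo1 window held CCAAT boxes, at 162, 55 and 23 bases before the start, and the Foxo3 window held none of these letters.

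GSK3 and SGK genes differed within each pair. Gsk3b, a kinase of glycogen synthesis and of many transcription factors that AKT inhibits, gave 426.0 units in eosinophils against 1368 units in dendritic cells, 3.21-fold lower in eosinophils. Gsk3a, its close relative, was level, with 515.3 units in eosinophils against 461.2 units in dendritic cells. Sgk1, an AKT-related kinase whose transcript is induced by glucocorticoids and osmotic stress, was well above the floor, with 4709 units in eosinophils against 10371 units in dendritic cells, 2.20-fold lower in eosinophils. Sgk3, the family member bound to endosomes, gave 2041 units in eosinophils against 1025 units in dendritic cells, 1.99-fold, just short of the 2-fold mark. The other probe sets of Sgk3 gave 470.9 and 255.6 units in eosinophils, against 297.4 and 171.3 units in dendritic cells, 1.58-fold and 1.49-fold. Gsk3b, Gsk3a and Sgk1 had 1 probe set each.

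Of the stress-induced inhibitors of mTORC1, Sesn1 was brighter in eosinophils and Ddit4 was level. Sesn1 encodes sestrin 1, a leucine-sensing inhibitor and a known target of p53 and FOXO. It gave 807.4 units in eosinophils against 265.5 units in dendritic cells, 3.04-fold. Its other probe sets gave 565.7 units in eosinophils against 204.5 units in dendritic cells (2.77-fold) and 225.6 units in eosinophils against 15.6 units in dendritic cells (at least 1.67-fold). Ddit4, which encodes REDD1, a stress and glucocorticoid response gene that releases the TSC complex, gave 373.2 units in eosinophils against 436.2 units in dendritic cells. Early response genes of cell isolation also differed between the arrays: 8 of 12 were at least 2-fold lower in eosinophils (10.01% of all genes) and none was 2-fold higher (12.3% of all genes), with summed signals of 17373 units in eosinophils against 33798 units in dendritic cells. Their part in the differences of Sgk1, Ddit4, Sesn1 and Txnip was not tested.

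The AMPK genes were brighter in eosinophils or level, and the upstream kinase was dimmer. Prkab1, the scaffold subunit beta, gave 1126 units in eosinophils against 486.6 units in dendritic cells, 2.31-fold. Prkag1, the nucleotide-sensing subunit gamma, gave 1264 units in eosinophils against 1015 units in dendritic cells, 1.25-fold, and a second probe set 1078 units in eosinophils against 784.9 units in dendritic cells, 1.37-fold. Stk11, which encodes LKB1, gave 242.2 units in eosinophils against 514.7 units in dendritic cells, 2.12-fold lower in eosinophils, from 1 probe set above the floor. Prkaa1, the catalytic subunit gene of the set, was not analysed here.

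**Figure D2:**
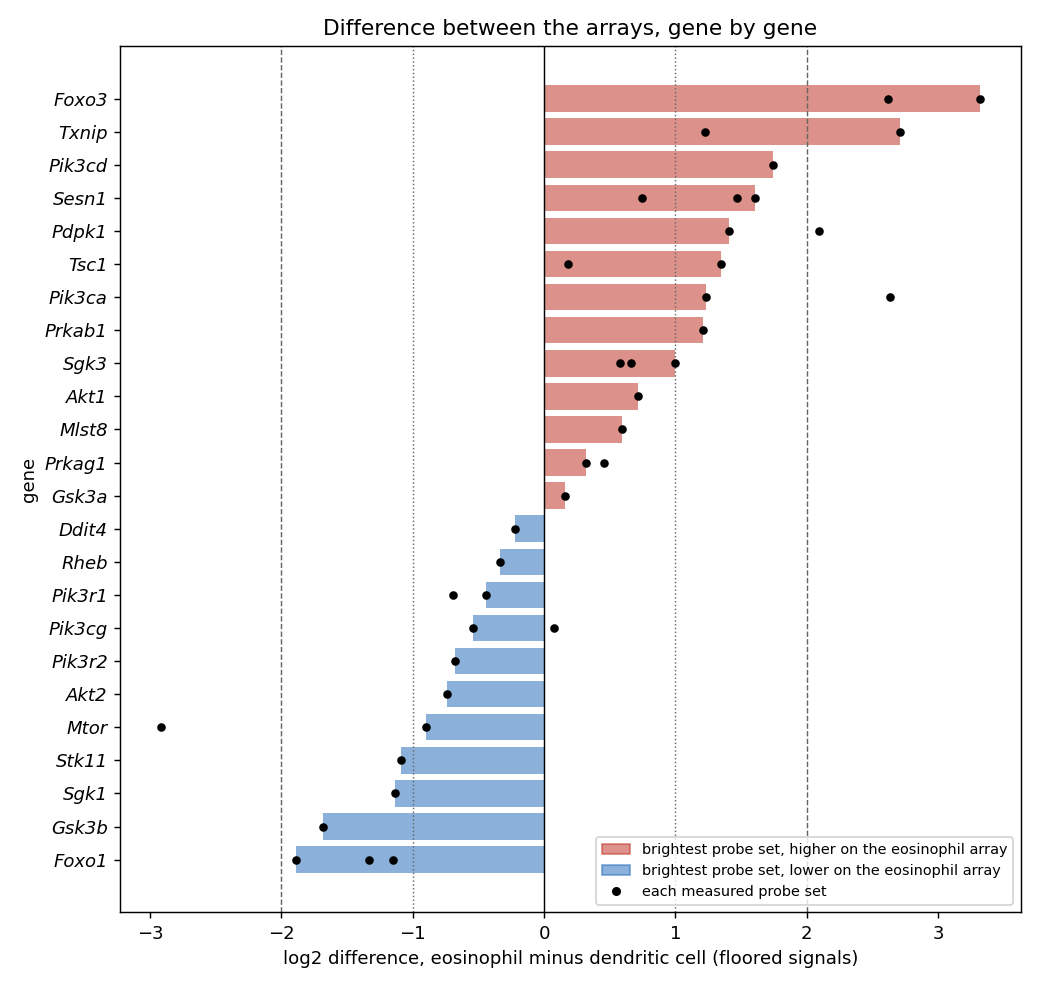
Log2 difference, eosinophil minus dendritic cell, of the 24 genes above the floor on at least 1 array, with bars for the brightest probe set and points for every measured probe set; dotted and dashed lines mark 2-fold and 4-fold. Bars run from 3.32 for Foxo3 to -1.89 for Foxo1, the second point of Mtor lies at -2.91, and the points of Pik3cg fall on either side of 0.

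The measured probe sets of a member mostly pointed the same way. Of the 12 members with more than 1 measured probe set, 11 had every measured probe set in the same direction, the exception being Pik3cg. The same share over all genes was not computed, and all probe sets read the same 2 RNA samples. Probe sets under the floor on both arrays were not counted. Without the floor some of them pointed against their gene, as for Foxo1, Akt1, Pik3cd and Pik3r1, and others with it, as for Foxo3, Prkab1 and Stk11. The size was less stable for Txnip, Mtor and Pik3ca, whose probe sets were more than 1 log2 unit apart. Those of Tsc1 were that far apart only because the second used the floor, and without it they gave 1.35 and 1.30. Over all genes above the floor on both arrays, the pooled SD among probe sets of the same gene was 0.73 log2 units, and among members above the floor on both arrays the differences of Akt1, Pik3cg, Pik3r1, Rheb, Gsk3a, Ddit4 and Prkag1 were smaller than that. That SD says nothing of the spread between animals or preparations.

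Other genes of the pathway were described by 8 lists holding 134 genes, of which 98 had a probe set. Of the 98, 19.4% were at least 2-fold higher in eosinophils, against 12.3% of all genes, and 14.3% at least 2-fold lower, against 10.01% of all genes. At 4-fold there were 5 genes (5.10%) in each direction, against 3.45% of all genes, and the median was 0.00. The same shares of all genes stand behind the list counts that follow, and no list was tested. On the spike scale 5 of the 98 were at least 2-fold higher in eosinophils (3.95% of all genes) and 32 at least 2-fold lower (24.2% of all genes), and Inpp4a and Txn2, named below, turned to -0.02 and -0.73 on the log2 scale. Single genes of the lists were far apart in both directions, and no list had all its measured genes on 1 side apart from the further AGC kinases, with 1 measured gene.

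Of the other PI3K subunits and lipid phosphatases, 2 of 8 were at least 2-fold higher in eosinophils and none was lower, with a median of 0.21. Inpp4a, a phosphatase of the PI3K product cascade, gave 4277 units in eosinophils against 2107 units in dendritic cells, 2.03-fold. Inpp5k, another inositol phosphatase, gave 792.9 units in eosinophils against 368.0 units in dendritic cells, 2.15-fold. Pik3r4, the regulatory partner of the class III enzyme, gave 247.0 units in eosinophils, against 66.8 units in dendritic cells, under the floor, and so at least 1.83-fold. Inpp5d, which encodes SHIP1, the leukocyte phosphatase that removes the PI3K product, gave 1830 units in eosinophils against 2828 units in dendritic cells, a log2 difference of -0.63. Its other measured probe set was further apart, at -1.24, which is more than 2-fold lower in eosinophils.

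Of the 17 AKT regulators, 3 were at least 2-fold lower in eosinophils and none was higher, with a median of 0.00 and 9 genes under the floor on both arrays. Phlpp1, a phosphatase that dephosphorylates AKT, gave 618.3 units in eosinophils against 5587 units in dendritic cells, 9.04-fold lower in eosinophils. Ppp2r5c, a regulatory subunit of the phosphatase PP2A, gave 567.4 units in eosinophils against 2824 units in dendritic cells, 4.98-fold lower, but its probe sets disagreed, with log2 differences from -2.32 to 1.56. Trib1, a pseudokinase, gave 467.6 units in eosinophils against 987.9 units in dendritic cells, 2.11-fold lower in eosinophils. Ppp2ca, the catalytic subunit of PP2A, gave 2984 units in eosinophils against 5387 units in dendritic cells, a log2 difference of -0.85.

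Of the 20 mTORC1 regulators and amino acid sensors, 4 were at least 2-fold higher in eosinophils and 2 at least 2-fold lower, with a median of 0.34. Lamtor4 and Lamtor5 encode subunits of Ragulator, the complex that anchors mTORC1 on lysosomes. Lamtor4 gave 2109 units in eosinophils against 303.6 units in dendritic cells, 6.95-fold, and Lamtor5 gave 3571 units in eosinophils against 1163 units in dendritic cells, 3.07-fold, with log2 differences of 1.62 and 1.63 for its probe sets. Seh1l, a subunit of the GATOR2 complex and of the nuclear pore, gave 5302 units in eosinophils against 2248 units in dendritic cells, 2.36-fold, with probe sets from 0.51 to 1.40 on the log2 scale. Sesn3, a sestrin like Sesn1, lay the other way, with 111.7 units, under the floor, in eosinophils and 310.5 units in dendritic cells, at least 2.30-fold lower in eosinophils.

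Of the 15 mTORC1 outputs, 2 were at least 2-fold higher in eosinophils and 4 at least 2-fold lower, with a median of 0.00. Eef2, the translation elongation factor, gave 999.1 units in eosinophils against 9489 units in dendritic cells, 9.50-fold lower in eosinophils. Eef2k, the kinase that inhibits eEF2 and is itself restrained by mTORC1 signalling, gave 812.4 units in eosinophils, against 113.8 units in dendritic cells, under the floor, and so at least 6.03-fold. The kinase and its substrate were thus at opposite ends of the list. Rps6, the ribosomal protein phosphorylated by S6 kinases, gave 133.4 units, under the floor, in eosinophils and 586.5 units in dendritic cells, at least 4.35-fold lower in eosinophils, while its other measured probe set had a log2 difference of 0.39. Ribosomal protein genes have near-identical copies that its probe sets may not tell apart. Eif4e, which binds the mRNA cap, gave 949.9 units in eosinophils against 2894 units in dendritic cells, 3.05-fold lower in eosinophils, with probe sets from -1.61 to -0.32.

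FOXO targets did not lie on 1 side. Of 18 genes of the FOXO family and textbook FOXO targets, 5 were at least 2-fold higher in eosinophils and 5 at least 2-fold lower, with a median of 0.02. The list leaves out the members, and so Txnip and Sesn1, FOXO targets that were at least 2-fold higher in eosinophils. Gadd45a, a growth arrest and DNA damage gene, gave 4301 units in eosinophils against 246.5 units in dendritic cells, 17.4-fold. Cited2, a transcriptional co-regulator, gave 16676 units in eosinophils against 1347 units in dendritic cells, 12.4-fold, while its other probe set had a log2 difference of only 0.50. Cat, which encodes catalase, gave 5500 units in eosinophils against 1382 units in dendritic cells, 3.98-fold. Ccr7, the lymph node homing receptor, gave 95.3 units, under the floor, in eosinophils and 2945 units in dendritic cells, at least 21.9-fold lower in eosinophils. Sesn3 and Trib1 belong to this list and to an earlier one.

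Of 13 genes for other AMPK subunits, upstream kinases and substrates, 4 were at least 2-fold higher in eosinophils and 2 at least 2-fold lower, with a median of 0.49. Camkk2, the calcium-dependent kinase that activates AMPK independently of LKB1, gave 5419 units in eosinophils against 541.1 units in dendritic cells, 10.02-fold, although log2 differences over its 3 measured probe sets went from 0.10 to 3.32. Tbc1d1, a Rab regulator phosphorylated by AMPK and AKT, gave 7249 units in eosinophils against 1898 units in dendritic cells, 3.82-fold, with probe sets from -0.11 to 1.93. Prkag2, another gamma subunit, gave 524.4 units in eosinophils against 204.2 units in dendritic cells, 2.57-fold, with probe sets from -0.56 to 1.36. Map3k7, which encodes TAK1, gave 696.8 units in eosinophils against 1521 units in dendritic cells, 2.18-fold lower in eosinophils, but its probe sets disagreed, from -1.18 to 0.49. By their brightest probe sets, the AMPK-activating kinase Camkk2 thus lay opposite to Map3k7 and to Stk11, which had 1 probe set above the floor.

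Relatives and partners of Txnip were described as another list. Of 7 arrestin fold and thioredoxin genes, 1 was at least 2-fold higher in eosinophils and none was lower, with a median of -0.17. Arrdc1, an arrestin-domain protein, gave 759.6 units in eosinophils against 334.1 units in dendritic cells, 2.27-fold, with probe sets from 0.22 to 1.18 on the log2 scale. Txn1, the thioredoxin that Txnip binds, gave 8373 units in eosinophils against 10402 units in dendritic cells, a log2 difference of -0.31. Txn2, the mitochondrial thioredoxin, gave 454.8 units in eosinophils against 366.0 units in dendritic cells, 1.24-fold, and Mlxip, which encodes MondoA, gave 530.8 units in eosinophils against 626.7 units in dendritic cells, a log2 difference of -0.24. Among further AGC kinases, Rps6ka3, a ribosomal S6 kinase of the ERK pathway, gave 996.1 units in eosinophils against 352.4 units in dendritic cells, 2.83-fold, with probe sets from -2.15 to 1.5 on the log2 scale.

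**Figure D3:**
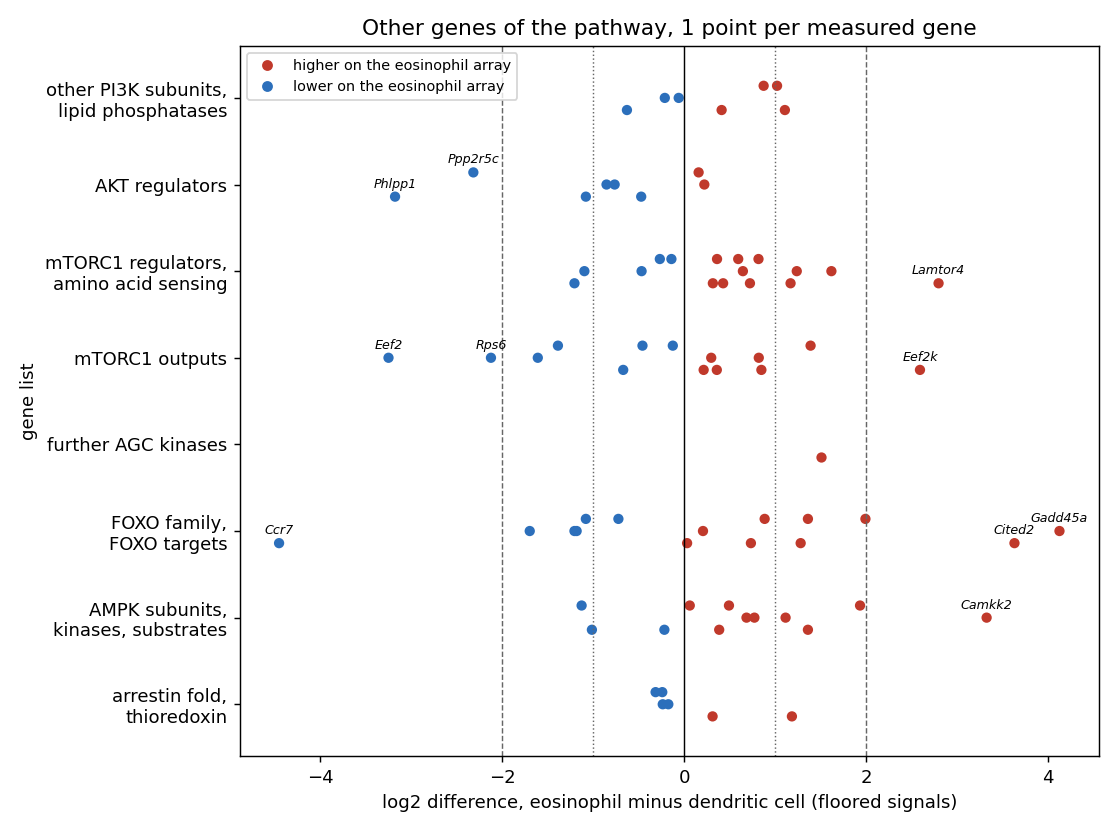
Log2 difference, eosinophil minus dendritic cell, of the measured genes of 8 further pathway lists, 1 point per gene, with names beyond 4-fold (dashed lines; dotted lines mark 2-fold). Points lie on both sides of 0 in each list with more than 1 measured gene, from Ccr7 at -4.45 to Gadd45a at 4.12.

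None of the 12 members at least 2-fold apart changed direction under the 12 processing alternatives tried, which covered scaling, the floor and the choice of probe set. Stk11 had no measured value when probe sets with the suffixes _s_at, _x_at and _a_at were left out. Scaling by a constant could not have turned them. The largest such shift, -1.04, was smaller than the 1.21 of Prkab1, the least of the higher members, and took lower members further down. Among members under 2-fold, Akt1, Gsk3a, Sgk3 and Prkag1 turned on the spike scale. Gsk3a also turned with median centring (a log2 difference of -0.12) and with loess (-0.002). Foxo3, Txnip, Foxo1 and Gsk3b remained at least 2-fold apart under all 12. The other 8 fell short of 2-fold under at least 1. Pik3cd, Sesn1 and Pdpk1 did so on the spike control scale alone. Tsc1 did so there and with the mean of all probe sets, Pik3ca and Prkab1 there and with median centring, and Sgk1 and Stk11 under other settings.

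**Figure D4:**
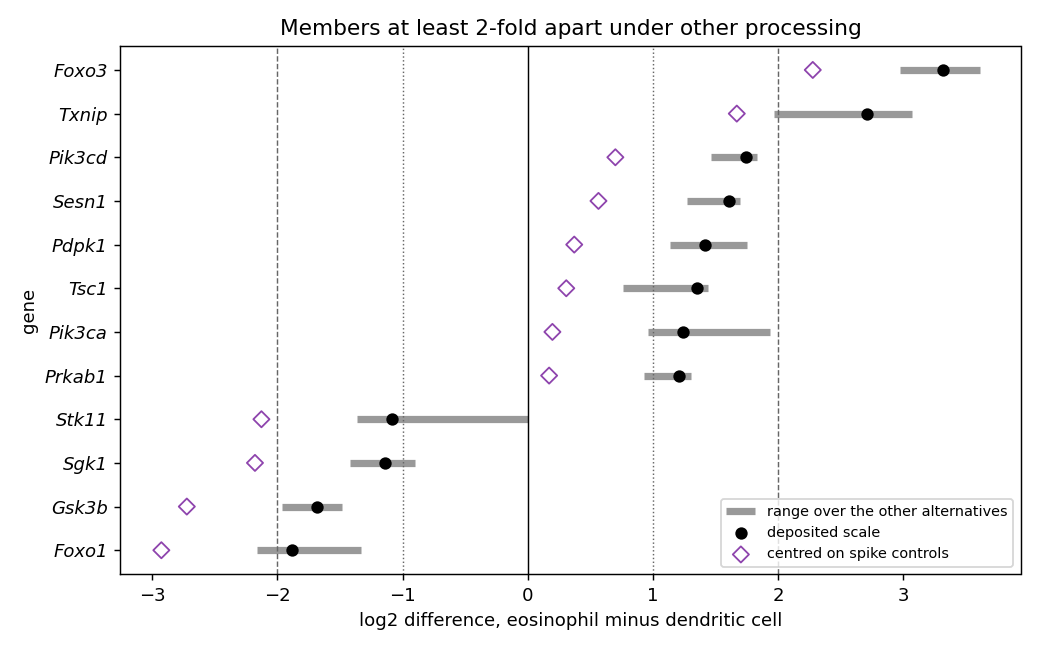
Log2 difference, eosinophil minus dendritic cell, of the 12 members at least 2-fold apart on the deposited scale (points), with the range over 11 alternatives (bars) and the value after centring on spike controls (diamonds). Foxo3 stays between 2.28 and 3.61 and Foxo1 between -2.93 and -1.33, and the diamonds of Pik3ca and Prkab1 lie at 0.20 and 0.17.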

How the data were processed

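The authors deposited a linear signal intensity for each probe set; the submitters' processing notes name MAS5 (version 5.0). The RNA was measured as biotin-labelled cDNA, per the labels' protocols. Genome build, background step and detection calls are not given in the sources used here, and scanner files were not used here. There were 22690 probe sets, 64 of them array controls. The platform annotation gave 1 gene for 20393, several for 691, which were not named, and listed 1606 not at all. Symbols were updated through the Entrez identifier with RefSeq (GRCm38.p6). After the extreme 2% at either end of an array were trimmed, mean signals were 500.2 units for eosinophils against 500.3 units for dendritic cells. An equal trimmed mean can be set by the scaling and does not show that the signals are comparable. Median signals were 148.1 units for eosinophils against 122.0 units for dendritic cells, and the spike controls were 2.06-fold apart. The floor of 134.7 units was exceeded by 52.8% and 47.2% of probe sets. Log2 differences were computed with Python 3.11.15 and numpy 2.4.6. The number of arrays, 1 per population, limits the precision.

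All members are accounted for; those at least 2-fold apart are given with each measured probe set, and up to 4 genes per further list, those with the largest differences, are named. Members and lists were chosen with earlier results of these data known. Background genes were 41 germ cell, lens, hair and olfactory genes. The counting step was tested on simulated data. Alternatives were 5 scalings, 4 treatments of the floor, 3 choices of a gene's probe set and a 10-fold threshold.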

Additional observations from a re-analysis of the deposited data

How the results depend on the processing

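No paired analysis was possible because each population has 1 array. Of the counts at 4-fold, 2 members higher in eosinophils became 1 (Foxo3) after centring on the spike controls (1.30% of all genes), 1 (Foxo3) with the mean of all probe sets (2.58%) and 0 at a 10-fold threshold (0.847%). The count of 0 members at least 4-fold lower became 1 (Foxo1) with median centring (4.62% of all genes), quantile normalization (3.56%) or loess (3.72%), 1 (Mtor) with the probe set of the highest signal on either array (3.70%), and 4 on the spike scale (9.30%). At 2-fold, 8 higher and 4 lower became 2 and 11 on the spike scale (3.95% and 24.2% of all genes), and stayed within 1.5 times the main count under each other alternative. The median of 0.00 falls on a member held at 0 by the floor, so it says little about stability. Without the floor it was 0.32 (0.25 for all genes), and on the spike scale -0.35, where the median was -0.044 over all genes and -0.65 over those above the floor on at least 1 array. Median centring lowered differences of members above the floor on both arrays by 0.28. No value of a member at least 2-fold apart turned its sign, which the constant shifts were too small to do. Over single members, 290 of 324 values moved by less than 0.73, the SD between probe sets, and 34 moved further. Many of the 324 could not move. A lower floor leaves members above the floor on both arrays unchanged, and the choice of probe set leaves members with 1 probe set unchanged. The 290 values are thus no measure of stability. On the spike scale every member above the floor on both arrays moved further than 0.73. The cause of the shifts and moves was not tested. Members near the floor (Akt2, Pik3r2, Mlst8, Rictor and Tsc2) are limited by signal over background, and dim differences there were not detectable.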
